A study of Mus musculus with 3 samples.

Results

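In DNase-seq maps of mouse Müller cells, 5585 strong accessible sites were present in replicates 1 and 2 and missing from replicate 3. Müller cells are the radial glia of the retina, and DNase-seq maps open chromatin, mostly promoters and enhancers, by its sensitivity to DNase I. The cells were primary cells of the B6NCrl strain taken 12 days after birth, healthy and with both sexes pooled, in 1 group of 3 biological replicates that carry separate biosample labels and 1 shared donor label. The labels link a nuclei protocol written for cultured cells and name no sort, treatment or time in culture, so what other retinal cells the preparations held is not stated.

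The sites were chosen by their values in these same 3 libraries. Overlapping peaks (1 bp or more) were joined across the replicates, which gave 352310 regions, 351961 of them on autosomes and X. A region was called strong when its best peak score was at least 70 in replicate 1 and at least 60 in replicate 2. The score is a whole number from 1 to 150 that the authors deposited for each peak, and its meaning is not stated. Of 87752 strong regions, 78951 also had a replicate 3 peak and serve below as the strong shared sites. A further 3216 had no replicate 3 peak but overlapped a replicate 3 hotspot, a wider stretch of raised signal. The remaining 5585, which were 6.36% of strong regions, had neither and are the absent sites described here. With 3 libraries of 1 group no test between replicates was possible, so every comparison below is a description, and absence from a peak list does not show that the chromatin was closed.

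Macrophages are phagocytes of the innate immune system, and microglia are the resident macrophages of the brain and retina. Their enhancers are opened by PU.1, the ETS factor encoded by Spi1, which works with C/EBP, IRF, RUNX and AP-1 factors, and the cells need the growth factor receptor encoded by Csf1r. Müller glia carry instead the glutamate transporter Slc1a3, glutamine synthetase Glul and the retinoid carrier Rlbp1, and their chromatin is shaped by SOX, NFI, LHX and TEAD factors among others.

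The DNA of a few absent sites is shown for the motifs and genes met below. The Hif1a and Myo1e sites are among the 10 strongest absent sites by the sum of both scores. The next 5 lie at macrophage genes and the sixth at the Müller gene Slc1a3, all picked after their values were seen. The last is an intergenic strong shared site given for contrast, 95712 bp from the nearest start site, that of Slc1a3. Each sequence is the 150 bases at the centre of the site, plus strand, RefSeq sequence of build GRCm38, none of it in an exon of a protein-coding gene. Capitals mark matches on either strand to PU.1 (GAGGAAGT), an ETS-IRF composite (GGAANTGAA), C/EBP (TTGCNNAA) or AP-1 (TGANTCA).
Hif1a distal, chr12:73779366-73779515: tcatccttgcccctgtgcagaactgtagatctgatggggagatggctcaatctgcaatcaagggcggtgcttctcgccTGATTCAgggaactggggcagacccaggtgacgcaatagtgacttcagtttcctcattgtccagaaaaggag
Myo1e intron, chr9:70284666-70284815: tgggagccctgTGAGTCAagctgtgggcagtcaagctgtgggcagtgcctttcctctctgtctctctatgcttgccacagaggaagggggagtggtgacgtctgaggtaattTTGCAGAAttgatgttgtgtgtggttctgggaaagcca
Spi1 promoter, chr2:91082996-91083145: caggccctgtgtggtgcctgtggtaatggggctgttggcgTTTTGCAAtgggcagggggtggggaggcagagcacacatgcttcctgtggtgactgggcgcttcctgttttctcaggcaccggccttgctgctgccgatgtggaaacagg
C1qb promoter, chr4:136886206-136886355: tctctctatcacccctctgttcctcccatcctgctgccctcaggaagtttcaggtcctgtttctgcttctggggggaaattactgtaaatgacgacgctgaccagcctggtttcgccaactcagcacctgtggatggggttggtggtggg
Cx3cr1 intron, chr9:120058846-120058995: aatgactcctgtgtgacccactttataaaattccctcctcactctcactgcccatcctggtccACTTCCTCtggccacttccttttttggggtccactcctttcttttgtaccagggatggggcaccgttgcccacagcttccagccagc
Mef2c intron, chr13:83609286-83609435: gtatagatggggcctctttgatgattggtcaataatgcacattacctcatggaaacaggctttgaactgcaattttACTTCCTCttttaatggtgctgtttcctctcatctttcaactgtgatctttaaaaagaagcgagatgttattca
P2ry12 intron, chr3:59228846-59228995: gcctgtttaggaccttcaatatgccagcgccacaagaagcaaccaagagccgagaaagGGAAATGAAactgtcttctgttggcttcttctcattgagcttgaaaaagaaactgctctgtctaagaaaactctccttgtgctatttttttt
Slc1a3 intron, chr15:8707136-8707285: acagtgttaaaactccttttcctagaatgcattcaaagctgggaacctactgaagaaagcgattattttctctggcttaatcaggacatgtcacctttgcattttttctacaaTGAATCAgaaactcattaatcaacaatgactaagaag
Slc1a3 shared, chr15:8806476-8806625: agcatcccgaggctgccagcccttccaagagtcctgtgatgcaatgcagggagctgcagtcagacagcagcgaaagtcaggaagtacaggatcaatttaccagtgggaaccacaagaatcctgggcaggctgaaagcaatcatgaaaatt
The Hif1a and Slc1a3 absent sites hold an AP-1 match, and the Myo1e site holds AP-1 and C/EBP matches. A PU.1 match stands in the Cx3cr1 and Mef2c sites, an ETS-IRF match in the P2ry12 site and a C/EBP match in the Spi1 promoter site. The C1qb promoter site and the shared Slc1a3 site hold none of the 4.

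Absent sites were of moderate strength. Their median score was 82 in replicate 1 and 72 in replicate 2, with highest values of 127 and 119, whereas strong shared sites had medians of 103 and 91 and a median of 70 in replicate 3. The share of strong regions that were absent fell with the replicate 1 score by band, from 19% at 70 to 79 and 12.1% at 80 to 89 to 6.62% at 90 to 99 and 2.58% at 100 to 109. It was 0.789% at 110 to 119, 8 of 9202 regions at 120 to 129, 0 of 7976 at 130 to 139 and 0 of 4670 above. Over the same bands the median replicate 3 score of the shared sites rose from 45 to 131. Because membership moves with score, the main comparisons with shared sites are also given for scores of 70 to 89 in replicate 1, a band chosen after the data were seen that holds 4168 absent and 22200 shared sites.

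**Figure D1:**
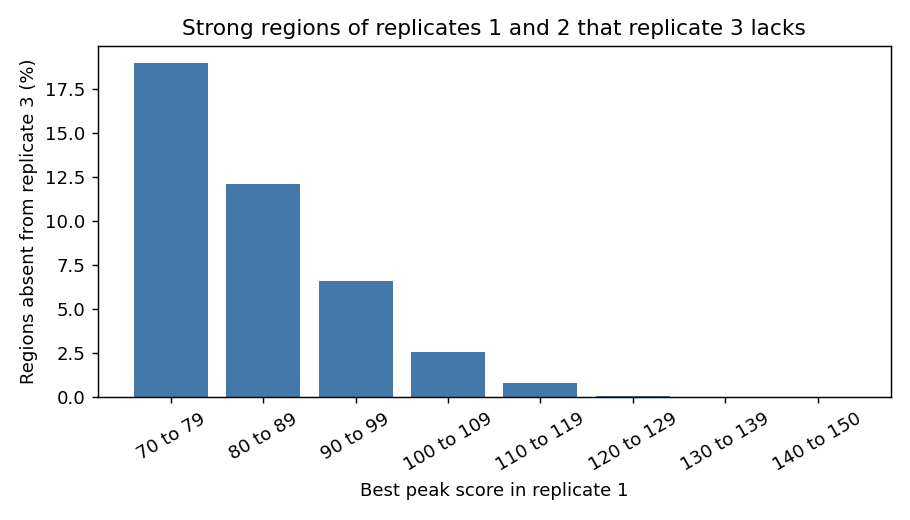
The bars give the percentage of strong regions with neither a peak nor a hotspot in replicate 3 (vertical axis), by best replicate 1 peak score (horizontal axis). The share falls from 19% in the lowest band to 0 above a score of 129.

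At the replicate 1 threshold, 189 absent sites scored exactly 70 and 176 regions that met the other conditions scored 69. Sites just inside lay nearest to Tnr, Plcg1 and Dmrtb1, each with scores of 70 and 60. Regions just outside lay nearest to Cux1, Inpp5d and Myo1f, with a replicate 1 score of 69 and replicate 2 scores of 82, 78 and 77.

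The reverse patterns were rare. With replicate 3 in the place of replicate 1 and the same score limits, 4 of 40813 strong regions were absent from replicate 1, and 14 of 51170 strong regions of replicates 1 and 3 were absent from replicate 2. Replicate 3 had the fewest peaks, 184544 against 300269 in replicate 1 and 281185 in replicate 2, and read depth is unknown for all 3. The part that depth or signal to noise plays in the absent sites was not tested.

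Most absent sites lay away from promoters. A total of 305 were promoter sites, with a start site no more than 1 kb away, which is 5.46% of absent sites against 22.4% of strong shared sites. In the score band 70 to 89 the shares were 5.57% and 12.3%. Introns held 48.8% of absent sites and 35.6% of shared ones, and intergenic sequence held 42.1% and 39.1%. The intron shares in the score band were 48.6% and 40.0%, and the intergenic order turned, with 42.1% of absent and 44.1% of shared sites. Mean GC content of the central window was 47.6% ± 5.88 (SD over 5585 sites) against 52.8% ± 10 over 78951 shared sites, with means of 47.6% and 50.7% in the score band, and GC content also moves with promoter share. The median gap from an absent site to the nearest replicate 3 peak was 2990 bp, with 535 sites (9.58%) within 500 bp of one and 741 (13.3%) more than 10 kb from any.

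Each absent site was assigned to the closest protein-coding start site up to 100 kb away. Distance alone does not identify the gene that an element controls. The assignment covered 4767 sites and 2921 genes, or 13.5% of 21643 protein-coding genes, and 818 sites lay farther out. Of all strong regions within 100 kb of a start site, 6.68% were absent sites, which is the background for every gene list below. In the score band 70 to 89 that background was 16.3%.

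Genes of macrophages stood above that background. Over 10 macrophage lists with 146 genes, 182 of 684 strong regions were absent sites, or 26.6%, and in the score band 70 to 89 the share was 45.6%. A total of 91 of the 146 genes (62.3%) had at least 1 absent site, beside 13.5% of all genes. The 146 genes also had more strong regions per gene, 684 in total against 71374 at all 21643 genes, which raises that count. Those 182 sites were 3.82% of the absent sites near a gene, against 0.745% of strong shared sites, so most absent sites lay at genes of no list used here. The lists were chosen with earlier results on microglial genes of these data known, and the counts carry no test.

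**Figure D2:**
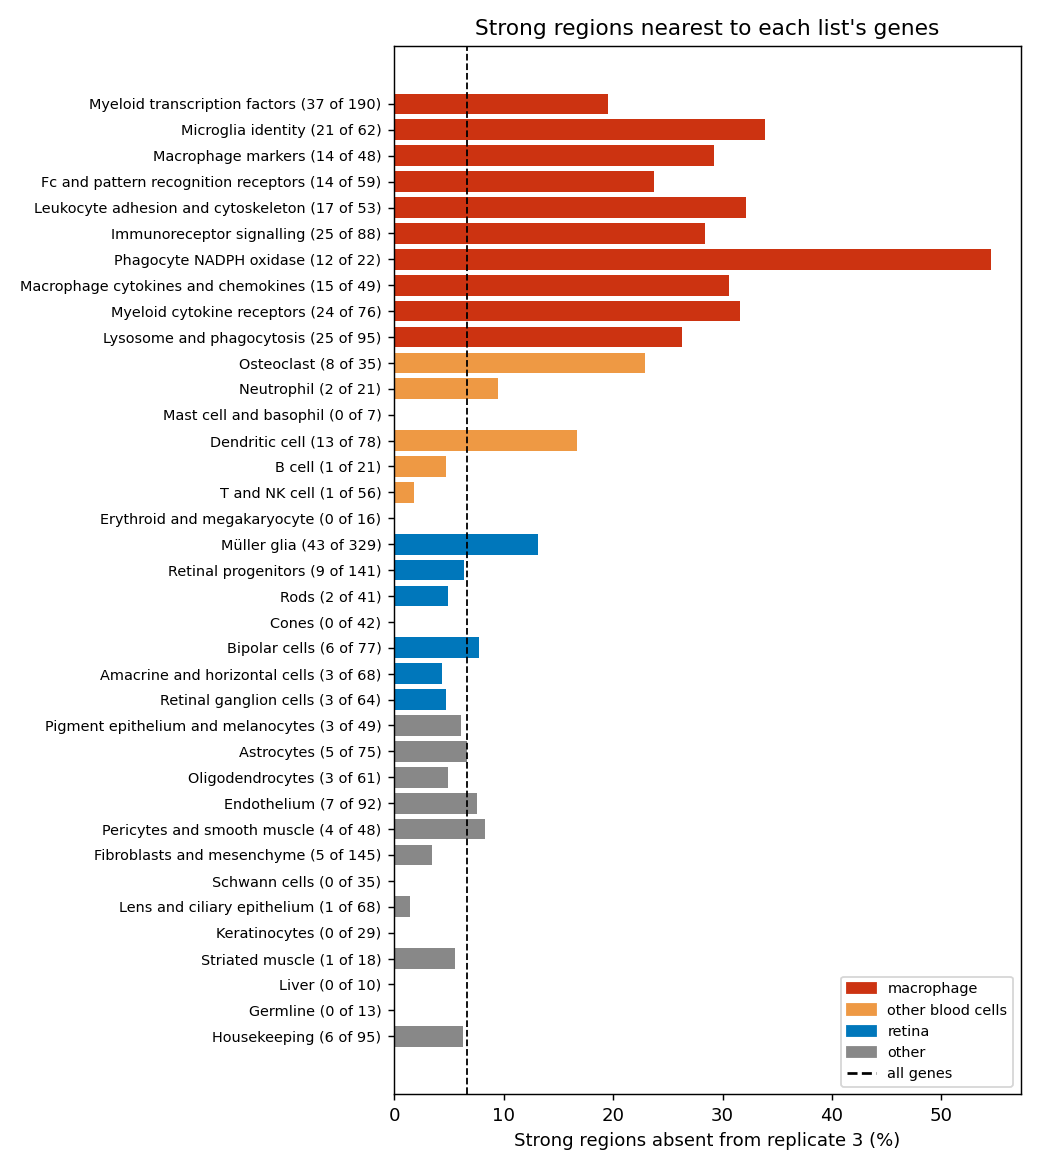
The bars give the percentage of strong regions nearest to each list's genes that were absent from replicate 3 (horizontal axis), with both counts beside the list name (vertical axis) and colour by kind of list. The dashed line marks 6.68%, the share over all genes, and the 10 macrophage lists run from 19.5% to 54.5%.

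Myeloid transcription factors had 37 absent sites among 190 strong regions, at 10 of 16 genes. At Spi1, which encodes PU.1, 3 of 5 strong regions were absent sites, and the strongest scored 101 in replicate 1, 92 in replicate 2 and had no peak in replicate 3. It lay 586 bp from an annotated start site. Runx1, a regulator of blood cell formation, had 9 absent sites among 40 strong regions, and its promoter scores were 143, 144 and 133 in replicates 1, 2 and 3. Zeb2, a zinc finger factor used by macrophages and by neural cells, had 8 of 26, the strongest scoring 121 and 106. Mef2c, a MADS-box factor of microglia, muscle and neurons, had 7 of 26. Fli1 had 3 of 9, Cebpb 3 of 30, Irf5 1 of 5, Irf8 1 of 10, Lyl1 1 of 4 and Maf 1 of 16. The share at Maf, 6.25%, lay below the background of 6.68%. No absent site fell at Cebpa, Ikzf1, Nr1h3, Sall1 or Tfec.

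Among genes that mark microglia, 21 of 62 strong regions (33.9%) were absent sites, at 14 of 19 genes. The 3 neighbouring genes C1qa, C1qb and C1qc encode the chains of complement C1q, and each had 1 absent site, at its promoter. C1qb scored 100 in both replicates 1 and 2, C1qc scored 91 and 95, and C1qa scored 89 and 69, all without a replicate 3 peak. Cx3cr1, the fractalkine receptor, had 3 absent sites among 6 strong regions. Its promoter scored 83 and 80, and an intronic site with a PU.1 match scored 98 and 90. Trem2, a lipid-sensing receptor, had 1 of 2, and its signalling adaptor Tyrobp had 2 of 2. P2ry12, the purinergic receptor of resting microglia, had 2 of 8, and its promoter peak was 88, 83 and 39 in replicates 1, 2 and 3. Olfml3 had 2 of 9, Selplg 2 of 4, Csf1r 1 of 4, and Ctss, Fcrls and Slc2a5 1 of 3 each. Olfml3 kept a promoter peak of 111 in replicate 3. Tmem119 and Sall1, other microglial markers, had no absent site and replicate 3 promoter scores of 68 and 101.

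Macrophage surface markers gave 14 absent sites among 48 strong regions (29.2%), at 10 of 24 genes. Cd14, the lipopolysaccharide co-receptor, had 3 of 3, although replicate 3 had a promoter peak of 56 there, 290 bp from the absent promoter site, and Itgam, which encodes CD11b, had 2 of 2. Cd86, a co-stimulatory ligand, had 2 of 3. Adgre1, the F4/80 antigen, had 1 of 3, Ptprc, the pan-leukocyte phosphatase CD45, 1 of 5, and Mertk, a receptor for dying cells, 1 of 8. Fcgr1, an Fc receptor, had 1 of 3, Ms4a6c 1 of 1, Timd4 1 of 2 and Csf1r 1 of 4. Aif1, Cd163, Cd68, Cybb, F13a1, Lyve1, Lyz2, Marco, Mrc1, Ms4a7, Msr1 and Pf4 had none, and neither had Ccr2 and Vsig4. At several of these the promoter peak was too weak for the score limits, as at Aif1 with 58 and 57, or was kept at a lower score, as at Cd68 with 124, 109 and 44.

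**Figure D3:**
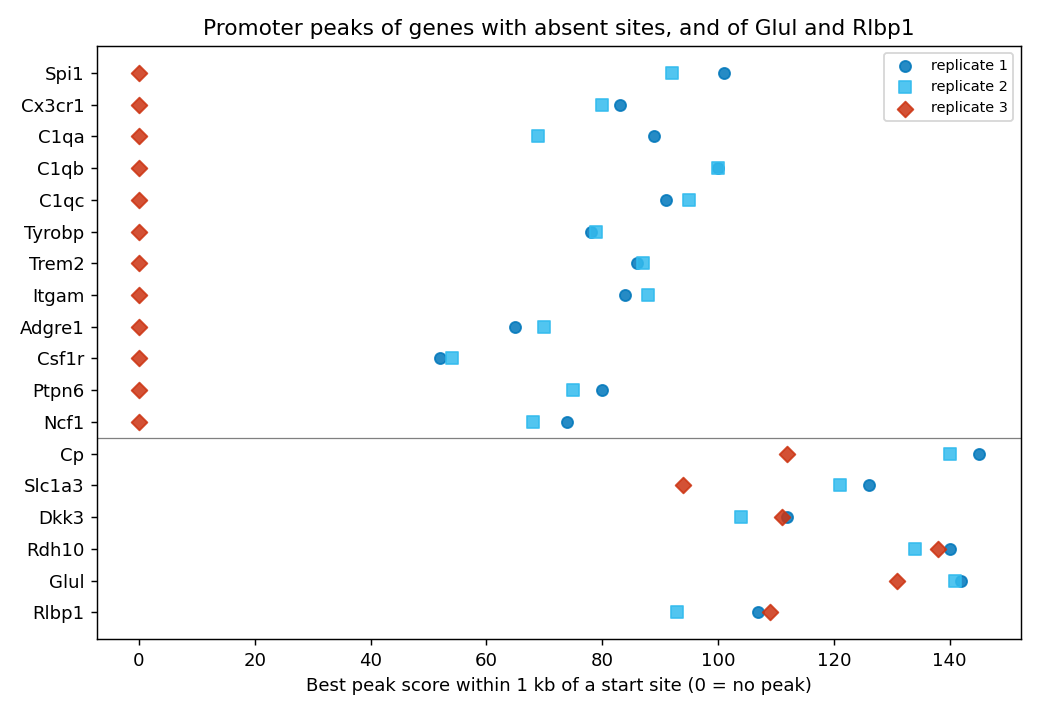
Each point is the best peak score within 1 kb of a gene's start sites (horizontal axis, 0 where no peak was listed) in 1 replicate, by gene (vertical axis), with genes picked after their values were seen. The 12 macrophage genes above the line have no replicate 3 promoter peak, and the 6 Müller genes below it have one between 94 and 138. The 12 do not stand for their lists, since 80 of all 146 macrophage genes had a replicate 3 promoter peak.

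Lists of macrophage function also lay above the background, and genes such as Cx3cr1 count in more than 1 list. The phagocyte NADPH oxidase, which makes the respiratory burst, had the highest share of any list, with 12 absent sites among 22 strong regions (54.5%). All 4 strong regions of its subunit gene Ncf1 were absent sites, as were 2 of 3 at Ncf4 and 2 of 3 at Cyba. Myeloid cytokine receptors had 24 of 76, with 8 of 12 at the chemokine receptor gene Ccr1, 3 of 6 at Cx3cr1 and 3 of 12 at the TNF receptor gene Tnfrsf1b. Immunoreceptor signalling had 25 of 88, with 3 of 3 at Ptpn6, the phosphatase SHP-1, picked after its values were seen. The adaptor gene Lcp2 had 3 of 5, and the kinase genes Lyn and Syk had 3 of 12 and 3 of 15. Leukocyte adhesion and cytoskeleton genes had 17 of 53, among them 3 of 6 at the actin bundler Lcp1. Cytokine and chemokine genes had 15 of 49, with 3 of 9 at Ccl2, 2 of 5 at Il1a, 2 of 7 at Il1b and 2 of 3 at Osm. Fc and pattern recognition receptors had 14 of 59, and lysosome and phagocytosis genes had 25 of 95, with 4 of 9 and 4 of 8 at the cathepsin genes Ctsb and Ctsd.

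Promoter peaks of these genes, which the rule did not use as such but which come from the same libraries, were fewer in replicate 3. Over the 146 macrophage genes, 134 had a promoter peak in replicate 1, 136 in replicate 2 and 80 in replicate 3, and the summed promoter score was 11864, 11029 and 6683. Over 26 Müller glia genes the counts were 26, 26 and 26, and the sums were 3182, 3007 and 2945. Among genes with a promoter peak in replicates 1 and 2, replicate 3 lacked one at 4.26% of 15311. The share was 6.27% of 2662 genes with an absent site and 42.0% of 88 macrophage genes with one. It was 0 of 13 Müller glia genes with an absent site. The rule fixes these shares in part, since some of the lost promoter peaks are themselves absent sites. Nor are the shares matched for score, and absence from replicate 3 was more frequent at lower scores. Macrophage promoter peaks were weaker on average, with a replicate 1 sum of 11864 over 134 genes against 3182 over 26 Müller glia genes. In bulk libraries, fewer cells of a type and weaker signal per cell cannot be told apart, and the part that either plays in the absent sites was not tested.

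Lists of other blood cells were lower apart from relatives of the macrophage. Osteoclast genes, which belong to the macrophage lineage, had 8 absent sites among 35 strong regions (22.9%), and dendritic cell genes had 13 of 78 (16.7%), 8 of them at Tcf4, a factor that many cell types use. Neutrophil genes had 2 of 21, B cell genes 1 of 21 and T and NK cell genes 1 of 56. Mast cell and basophil genes had 0 of 7, and erythroid and megakaryocyte genes had 0 of 16.

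Müller glia genes had 43 absent sites among 329 strong regions, or 13.1%, against the background of 6.68%. In the score band 70 to 89 the share was 28.6% of 91 regions against the background of 16.3%. The median share per gene over all scores was 1.92%, against 0% over all protein-coding genes. At least 1 absent site fell at 13 of the 26 Müller glia genes, beside 13.5% of all genes. These 2 shares are not on equal terms, since a gene with more strong regions has more chances to hold an absent site. The 26 genes had 329 strong regions, against 71374 at all 21643 genes. Of the 43 sites, 28 lay at 3 genes. Cp, which encodes the ferroxidase ceruloplasmin, had 11 of 21, Slc1a3 had 9 of 33, and Dkk3, a secreted protein of the Dickkopf family, had 8 of 25. Rdh10, a retinol dehydrogenase, had 3 of 13, and 9 more genes had 1 or 2 each. The other 13 genes, Glul and Rlbp1 among them, had none. Genes of retinal neurons had 14 of 292 (4.79%) and retinal progenitor genes 9 of 141 (6.38%). Housekeeping genes were at 6.32%, fibroblast genes at 3.45%, and cone, Schwann cell, keratinocyte, liver and germline genes had no absent site. In the score band housekeeping genes were at 26.3% of 19 regions, bipolar cell genes at 28.6% of 21, retinal neuron genes together at 13.9% of 101 and fibroblast genes at 8.89% of 45.

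**Figure D4:**
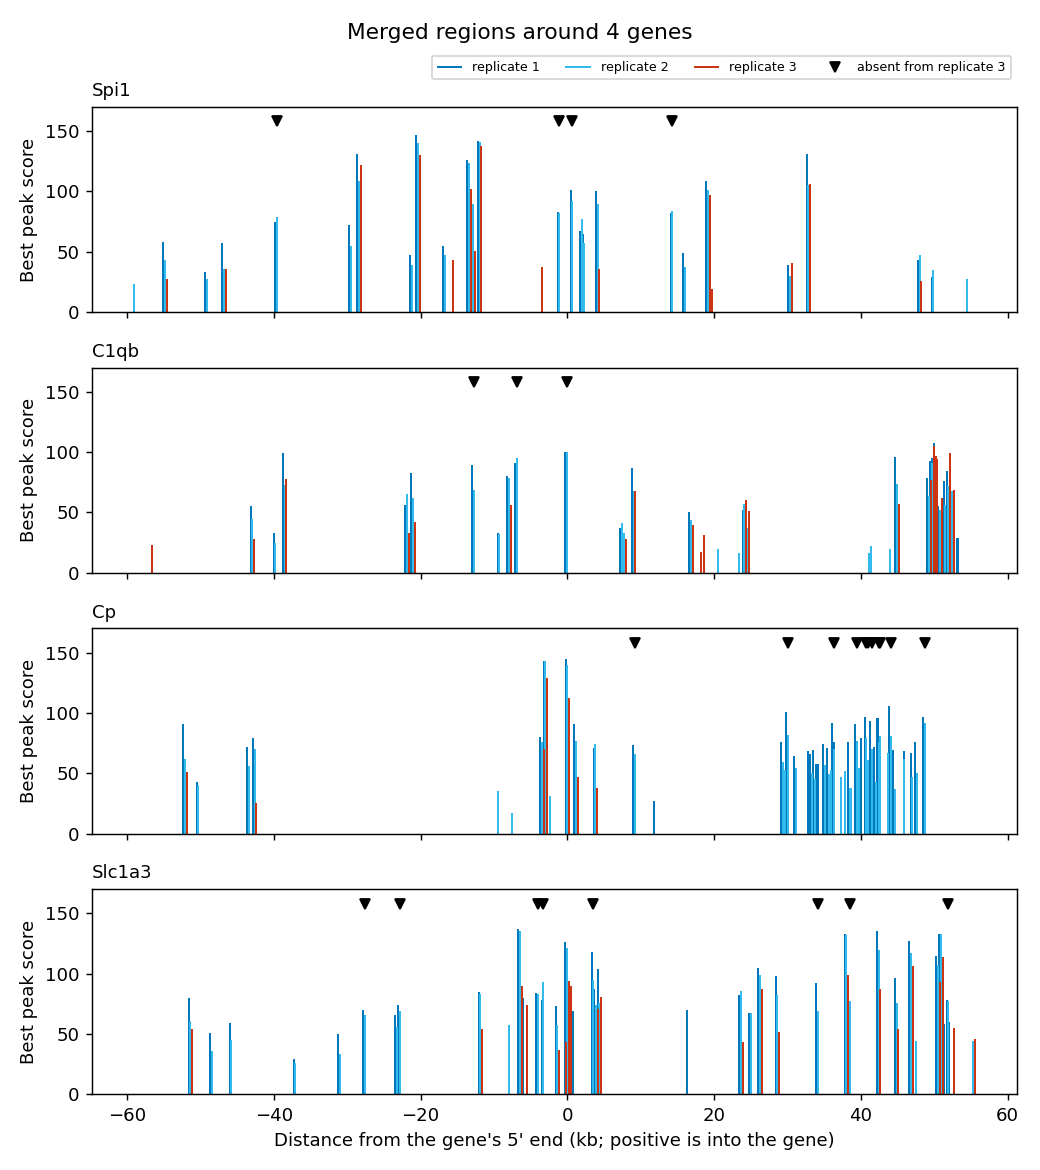
Each vertical line is the best peak score (vertical axis) of a merged region in 1 replicate, by distance from the gene's 5′ end in kb (horizontal axis, 60 kb to either side), at Spi1, C1qb, Cp and Slc1a3, with absent sites marked by triangles whichever gene they lie nearest to. Absent sites stand between shared regions at Spi1, C1qb and Slc1a3 and form a block within the Cp gene.

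The 12 genes with the most absent sites were of mixed kinds. The last places were tied at 8 sites and decided by summed score, which left out Dkk3 of the Müller glia list as well as Tcf4, Lhfpl2, Nav2 and Tpm1. Of the 12, 3 are in a macrophage list (Runx1, Zeb2 and Ccr1) and 2 in the Müller glia list (Cp and Slc1a3). Zmiz1, a transcriptional coactivator, had 11 of 48 strong regions absent, and Map4k4, a stress-activated kinase, had 11 of 28. Epb41l2, a membrane skeleton protein, had 10 of 30, Pdlim5, an actin-linked scaffold, had 9 of 31, and the aminopeptidase-like gene 2010111I01Rik had 9 of 42. Pde4b, a cyclic AMP phosphodiesterase, had 8 of 45, and Chd2, a chromatin remodeller, had 8 of 30. Each of these 7 genes kept a promoter peak in replicate 3, with scores between 77 and 140.

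Some absent sites lay close together. A total of 2634 of them (47.2%) were within 25 kb of another, and with sites joined at that distance 68 of 3928 groups, single sites included, held 5 or more. The same count was not made for strong shared sites, so whether absent sites lie closer together than other strong regions was not tested. Each span below runs from the first to the last absent site of a group, which raises the share of absent sites within it. The largest held 12 sites in 61450 bp across Cp and its neighbour Hps3, and all 12 strong regions in that span were absent sites. The group at Ccr1 held 8 of 8 strong regions, whereas that at Map4k4 held 11 of 20 and that at Zmiz1 held 10 of 20. A group of 9 of 13 lay at Epb41l2. Among 8643 genes with at least 3 strong regions, 10 genes (0.116%) had every one absent from replicate 3. These genes, picked after their values were seen, were Cd33, Cd300lf, Cd14, C5ar2, Pilra, Ptpn6, Ncf1, Scimp, Tagap and Mthfs, with 3 to 5 sites each. Of these, Cd33, Cd300lf and Pilra encode receptors of myeloid cells, C5ar2 a receptor for complement C5a, Scimp an adaptor of immune cells, Tagap a GTPase regulator of leukocytes and Mthfs an enzyme of folate metabolism. Of the 10, Cd14, Ptpn6 and Ncf1 are in the macrophage lists used here.

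The strongest absent sites were distal. The first by summed score lay 121850 bp from the nearest start site, that of Hif1a, the oxygen-sensing factor, with scores of 127 and 119. It was followed by a site 16097 bp from Hlx, a homeobox gene, with 121 and 115, and by sites in introns of Nav1 and Myo1e, a myosin, with 127 and 104 and with 113 and 118. The remaining 6 of the first 10 lay nearest to Dhrs3, Ubtd2, Map4k3, Tprg, Ccn2 and Igfbp2, with summed scores between 227 and 230. None of these 10 genes is in a macrophage list, and of all absent sites near a gene 3.82% lay at genes of such lists. An intronic site of Zeb2, a gene of a macrophage list, also had a summed score of 227 and was left out by the order of ties. The strongest promoter site was at Slc39a14, a zinc and iron transporter, with 114 and 105, followed by Synpo, A730049H05Rik, Oacyl, Slc15a3, Soat2, Nat9 and Zeb2. Slc15a3 encodes a lysosomal peptide transporter of immune cells.

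Sequence motifs were read in the central 150 bp, on both strands, for 25 consensus motifs. The PU.1 consensus GAGGAAGT was found in 347 of 5280 distal absent sites, or 6.57% (exact 95% binomial interval 5.92% to 7.27%, counting error only), against 1.40% of 61302 distal shared sites. In the score band 70 to 89 the shares were 6.48% and 1.32%. At macrophage genes 16.5% of 182 absent sites had a match, against 1.68% of 475 shared sites at the same genes, and at promoters 11.5% of 305 absent sites had one, against 1.35% of 17649 shared promoter sites. Of the 43 absent sites at Müller glia genes 0 had a PU.1 match, as had 0 of the 263 shared sites there. A match is a description of the letters and does not show that PU.1 was bound.

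Other motifs of macrophage enhancers were likewise more frequent over all distal absent sites. The ETS-IRF composite was in 4.05% of distal absent sites and 1.29% of shared ones, the IRF motif (GAAANNGAA) in 6.99% and 4.38%, C/EBP in 14.7% and 8.86%, and the MAF half-site (TGCTGAC) in 6.23% and 4.11%. RUNX (AACCACA) was in 9.00% and 7.72%, and MEF2 (CTANNNNTA) in 12.1% and 9.58%. In the score band 70 to 89 RUNX was in 9.02% and 7.05%, and MEF2 in 11.5% and 10.4%. At macrophage genes the RUNX order turned, with 6.59% of absent and 7.79% of shared sites, while MEF2 was in 11.5% and 7.37%. The ETS-IRF and IRF consensus overlap each other in part, and 37 distal absent sites had PU.1 and ETS-IRF matches together. AP-1 was the most common motif and differed little, with 22.8% and 23.9% over all scores and 22.0% and 21% in the band. At macrophage genes it was in 11.5% of absent and 22.5% of shared sites, and at promoters in 18.4% and 5.51%. At Müller glia genes AP-1 was in 23.3% of absent and 12.5% of shared sites.

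The CTCF motif of insulators, the KLF/SP motif and motifs of glia were less frequent over all distal absent sites. CTCF matches were in 0.530% of distal absent sites and 3.56% of shared ones, and in 0.584% and 5.29% in the score band. TEAD (CATTCCA) was in 4.26% and 8.11%, NFI in 0.133% and 0.587%, SOX (AACAATG) in 2.97% and 4.35%, LHX (CTAATTA) in 3.01% and 3.89%, and KLF/SP (GGGCGGGG) in 0.549% and 1.66%. The general E-box CAGCTG differed little, with 13.5% and 14.2%. None of the 25 motifs was found in 28.0% of distal absent sites and 31.8% of shared ones. At Müller glia genes the glial motifs did not share this order. SOX was in 4.65% of the 43 absent and 2.28% of the 263 shared sites there, TEAD in 4.65% and 4.94%, and LHX in 2.33% and 2.66%. These shares rest on 2, 2 and 1 absent sites.

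**Figure D5:**
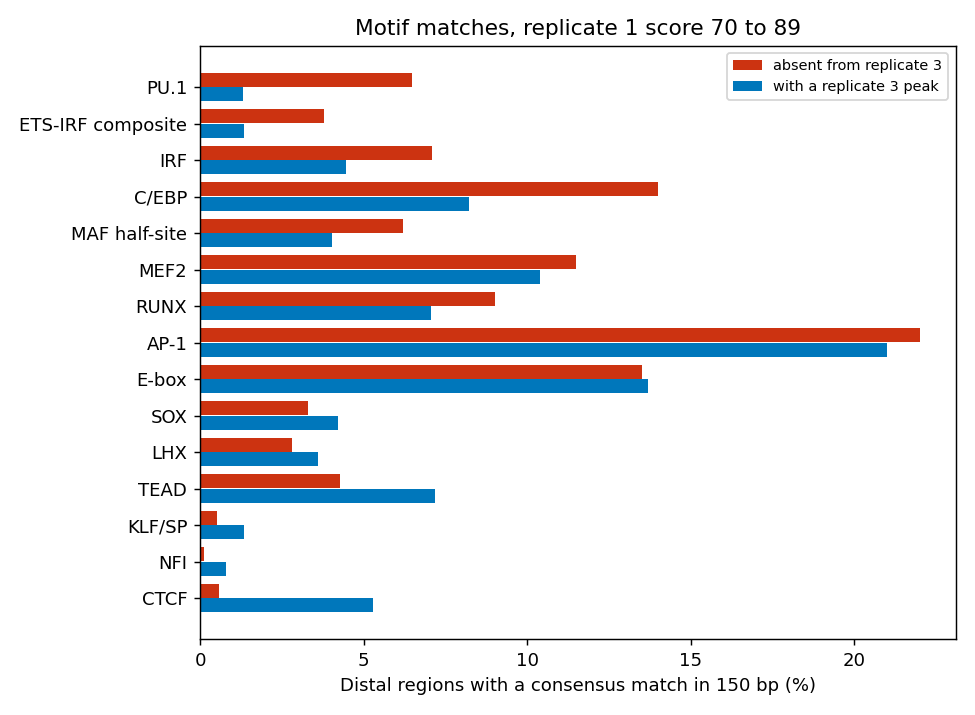
The bars give the percentage of distal regions with a consensus match in the central 150 bp (horizontal axis) by motif (vertical axis), for 3936 absent and 19474 shared regions of replicate 1 score 70 to 89. PU.1 stands at 6.48% and 1.32%, and CTCF at 0.584% and 5.29%.

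Absent sites with a PU.1 or ETS-IRF match lay at macrophage genes more often than those with AP-1 and neither of these. Of 567 absent sites with a PU.1 or ETS-IRF match, 39 of the 511 near a gene (7.63%) were at macrophage genes and 0 at Müller glia genes. Of 1182 with AP-1 and neither of those, 1.99% of the 1007 near a gene were at macrophage genes and 0.993% at Müller glia genes. The 3836 absent sites with none of the 3 motifs were at 3.79% and 1.02%. Over all absent sites near a gene the shares were 3.82% and 0.902%.

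The hotspots that held the absent sites in replicates 1 and 2 were a further readout, not used by the rule. Their deposited value, the −log10 of a q-value, was either at most 6.0 or at a cap of 100, with none in between. In both replicates the hotspot was at the cap for 4616 absent sites, below it for 271, and mixed for 698. Of the 646 strong regions below the cap in both replicates, 42.0% were absent sites, against 5.45% of the 84676 at the cap in both, and in the score band 70 to 89 the shares were 43.4% and 13.1%. The absent sites below the cap in both were intronic in 64.9%, and 8 of them lay at Zmiz1 and 4 at Dkk3. At Cp, 10 of 11 absent sites were below the cap in replicate 1 and 1 in replicate 2. PU.1 matches were in 4.43% of the absent sites below the cap in both and in 7.19% of those at the cap in both.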

How the data were processed

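DNase-seq was carried out in 3 biological replicates of Müller cells, with coordinates on mm10. For each replicate the authors deposited a peak list, whose value is a score, and a hotspot list, whose value is a −log10 q-value. Which aligner and peak caller were used is not given in the sources used here. Read depth is unknown. Peaks repeating a position were removed (21, 20 and 23), and peaks were merged at an overlap of 1 bp. Regions were annotated with protein-coding genes of GENCODE M21, and a promoter lies within 1 kb of a start site. All 37 gene lists and 25 motifs were matched by exact symbol or letters, and 146 of 147 macrophage genes were found. The members, lists and motifs were chosen with earlier results of these data known. Named genes are those with the most sites, the strongest sites, the strongest promoter sites, the leading genes of each list and all genes of 3 macrophage lists. A few genes that the rule names are not reported here. Genes and sequences outside that rule are said to be picked after their values were seen. Sequences are RefSeq GRCm38. Steps ran in Python 3.11.15 with pandas 2.3.3 and were tested on simulated data. No test was run, since 1 group of 3 libraries allows none between replicates and regions are not replicates. Intervals for shares, used to judge alternatives and printed with the PU.1 share, are exact binomial at 95% and cover counting error only. They treat sites as independent, although 47.2% of absent sites lay within 25 kb of another.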

Additional observations from a re-analysis of the deposited data

How the results depend on the processing

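No paired analysis was possible because the series has 1 group. Most results depend on the choice of score limits, since these define the sites. With both limits 10 lower, 10 higher and 20 higher, the number of absent sites was 11422, 2508 and 933 in place of 5585, their share of strong regions 10.2%, 3.69% and 1.79% in place of 6.36%, the macrophage marker genes with a site 17, 4 and 1 in place of 10, and the PU.1 share of distal sites 5.74%, 7.66% and 7.6% in place of 6.57%. With replicate 3 hotspots ignored there were 8801 sites (10%), of which 20.3% were at promoters in place of 5.46%, and the PU.1 share was 5.39%. With the 184544 strongest peaks of every replicate and hotspots ignored the values were 8802, 10%, 20.3% and 5.39%, a near repeat by construction, since that choice drops only peaks at or below scores of 44 and 33, under the limits of 70 and 60. With no replicate 3 hotspot within 500 bp, the share was 5.52% and the promoter share 4.44%. Leaving out 1 replicate's condition gave 7231 to 87752 sites, shares of 7.68% to 100%, promoter shares of 5.1% to 22.2%, 10 to 19 macrophage marker genes and PU.1 shares of 1.81% to 6.85%, with the far end in each case the list without replicate 3, which holds all strong regions. In the score band 70 to 89, added after the data were seen, 15% of strong regions were absent sites. Promoter windows of 2500 and 500 bp gave 11.8% and 3.37%, promoter sites alone left 2 macrophage marker genes, and a 300 bp window gave a PU.1 share of 9.47%. Merging at 50 bp moved no result beyond its counting error. Shares in shared sites were not recomputed under these alternatives other than the score band. Unknown depth limits what absence from replicate 3 means.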

Other observations

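Further groups of 9 or more absent sites, not described above, lay at Klf14 (10 of 26 strong regions in the span), at Socs3 and Pgs1 (9 of 25), at Incenp and Fth1 (9 of 14) and at Tomm20 (9 of 25). These genes and those named next were picked after their values were seen. Socs3 is a feedback inhibitor of cytokine signalling and Fth1 encodes the heavy chain of ferritin. A group of 8 lay at Btg2 and Chit1, the latter a chitinase of activated macrophages, with 14 strong regions in the span. A group of 7 of 12 lay at Ifngr2, a chain of the interferon gamma receptor.

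The share of strong regions that were absent sites was similar over the autosomes, between 5.66% on chromosome 12 and 7.52% on chromosome 10. On the X chromosome it was 3.39%, with 50 of 1475 regions, in samples that pool both sexes. Replicate 3 alone had 14 regions with a score of at least 70 that no peak or hotspot of the other replicates overlapped, among 44174 regions at that score.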
